A study of Mus musculus with 18 samples.

Results

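The CpGs described here were methylated in wild-type mouse oocytes already at the secondary follicle (SF) stage and were methylated again at the later early antral follicle (EAF) stage. A member was an autosomal CpG with fewer than 15 CpG positions within 100 bp on either side, itself included, with at least 5 reads in at least 2 wild-type oocytes of each stage, and with a mean methylation level of at least 80% in the wild-type oocytes of both stages. The libraries listed 1207879 CpGs, of which 20359 met the conditions on chromosome, density and reads. Of these eligible CpGs, 547 (2.69%) were members. Wild-type values chose the members, so their high wild-type levels are a description, and the question was how each fared in oocytes with deleted Sall4.

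Single oocytes were profiled by reduced representation bisulfite sequencing (RRBS), which reads fragments cut at MspI sites. There were 18 libraries, with 7 SF wild-type (WT), 5 SF knockout (KO), 4 EAF WT and 2 EAF KO oocytes. WT females were Sall4fl/fl, so they carried the floxed alleles too, and KO females were Sall4fl/fl;Zp3-Cre, in which Cre is driven by a promoter active in growing oocytes. The labels give P12.5 and P17.5 as ages without tying either to a stage. Which oocytes came from the same animal is not stated, so a group is treated as 1 sample, no test was run, and an SD describes the spread between oocytes. DNA libraries hold no expression markers, and neither the oocyte identity nor the Sall4 deletion was checked here.

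As background, the DNA methylation of mouse oocytes is largely erased in the primordial germ cells of the embryo and is laid down again after birth while the oocyte grows. The de novo methyltransferase DNMT3A with its cofactor DNMT3L writes most of it, mainly over transcribed regions. Some retrotransposon families, the intracisternal A particles among them, are known to keep methylation through the germline erasure. Sall4 encodes a zinc finger transcription factor of germ cells and embryonic stem cells.

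Reads summed over autosomal CpGs ranged from 450939 to 6284646 per library, and 19192 to 194880 CpGs per library had at least 5 reads. The median depth at members ran from 7 to 40 reads per oocyte, with the 40 in SF KO replicate 1. That library stood apart at CpGs that were at 10% or below in the WT oocytes of both stages. Its mean there was 17.8%, against 4.73% to 5.98% in the other SF KO oocytes, so results that lean on it are also given without it. PCR reads carry no molecular identifiers, so binomial intervals cover counting error only.

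The members lay on all 19 autosomes. Joined where they were at most 500 bp apart, they formed 238 regions, of which 121 held a single member and 33 held 5 or more, with 206 members in these. The largest region had 11 members. Their median density was 9 CpG positions, the same as the median of 9 over all eligible CpGs. At both stages, 202 members had a WT mean of 100%, and the median member was at 98.9% in SF WT and 100% in EAF WT. Of 1441 eligible CpGs at 80% or above in EAF WT, 38.0% were members, that is, their SF WT mean was at that level too. On held-out sets, described below, SF WT oocytes averaged 78.9% at members, just below the limit that chose them.

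Coverage limited what could be followed into the knockouts. A member was measured in a median of 8 oocytes, from 4 to 18, and 16 members were measured in all 18. With at least 5 reads in at least 2 KO oocytes as the minimum, 387 members were measured in SF KO, 130 in EAF KO, 123 in both and 153 in neither. At the edge of the rule, 70 members had a lower WT mean of 80% to 82%, and 67 of them were measured in SF KO at a mean of 68.0%. Just outside it, 50 CpGs had a lower WT mean of 78% to 80%, and the 48 measured in SF KO had a mean of 69.5%.

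Member methylation was lower in the knockout oocytes at both stages. Because a WT oocyte helps to choose the members, each WT oocyte was scored on members defined again without it. In SF WT, these held-out levels ran from 60.8% through a median of 80.2% to 90.1%. SF KO oocytes had 70.1%, 56.1%, 56.0%, 63.8% and 66.3%. SF KO values lay below those of 6 of the 7 SF WT oocytes, and the groups overlapped through SF WT replicate 3, the shallowest library, with 41 measured CpGs. The means were 78.9% ± 9.54 (SD, n = 7 oocytes) and 62.5% ± 6.26 (SD, n = 5 oocytes), a KO minus WT difference of -16.5 percentage points. Without SF KO replicate 1 the SF KO mean was 60.6% ± 5.28 (SD, n = 4 oocytes).

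The EAF stage had the wider gap. EAF WT oocytes had 90.5%, 88.9%, 91.1% and 84.9%, and EAF KO oocytes had 58.7% and 63.6%. These groups did not overlap. The means were 88.8% ± 2.79 (SD, n = 4 oocytes) and 61.2% ± 3.43 (SD, n = 2 oocytes), a difference of -27.7 points. Between the stages, EAF KO and SF KO differed by -1.30 points, less than the spread between oocytes of either group. These 2 means rest on different sets of CpGs. On the 123 members measured in both knockout groups the stage difference was -8.00 points. Scored on the very CpGs they had helped to choose, SF WT oocytes averaged 92.8% and EAF WT oocytes 94.4%, and these values were not used in the comparison.

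Held-out members need reads in 1 more WT oocyte than members do, so the WT and KO oocytes were also compared on the same CpGs in every pair of 1 WT and 1 KO oocyte. Over the 35 SF pairs the mean difference was -10.3 points, from -21.5 to 19.6, and 31 of 35 were below 0. In the 8 EAF pairs the mean was -17.9 points, from -23.5 to -13.6, and 8 of 8 were below 0. Pairs share oocytes and are not independent. On shared CpGs the gap was therefore smaller at both stages than over all measured members, and it kept its direction.

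Knockout oocytes had more members at low levels and fewer at high ones than WT oocytes of their stage. On average over oocytes, 24% of members were at 20% or below in SF KO and 8.43% in held-out SF WT. In EAF KO the share was 25% and in held-out EAF WT 1.62%. Members at 80% or above made up 49.7% in SF KO and 65.2% in SF WT, and 48.8% in EAF KO and 82.2% in EAF WT.

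**Figure D1:**
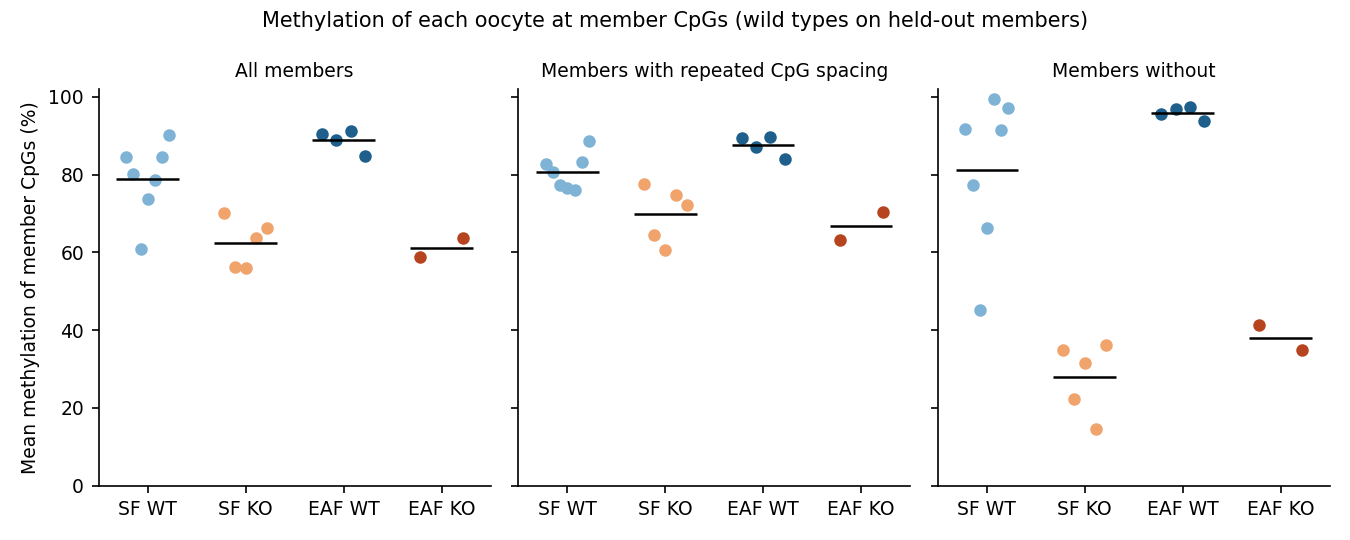
Mean methylation (%) of member CpGs in each oocyte, with 1 point per oocyte and a bar at the group mean, for all members (left), members whose CpG spacing recurs elsewhere (middle) and the others (right). WT oocytes are scored on held-out members. EAF KO lies below every EAF WT oocyte in each panel, and the widest gaps are in the right panel, where EAF WT averages 95.9% and EAF KO 38.0%.

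Each member was then classed by its mean over the KO oocytes of a stage as kept (80% or above), lost (20% or below) or partial. In SF KO, 149 of 387 members (38.5%, exact binomial 95% interval 33.6% to 43.6%) were kept, against 1.67% of the 17999 eligible CpGs measured in the same oocytes. Another 165 (42.6%) were partial, against 44.6%, and 73 (18.9%, interval 15.1% to 23.1%) were lost, against 53.8% of eligible CpGs at that low level. The median member was at 69.8% in SF KO. Without SF KO replicate 1, 36.3% were kept and 21.2% lost. The eligible CpGs include the members and were not chosen for being methylated in WT, so their shares give the level of the genome sampled and nothing about loss. Neighbouring members share reads, so the intervals are too narrow.

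In EAF KO, 55 of 130 members (42.3%, interval 33.7% to 51.3%) were kept, against 1.27% of 11012 eligible CpGs. A further 59 (45.4%) were partial, against 38.8%, and 16 (12.3%, interval 7.20% to 19.2%) were lost, against 59.9%. The median was 75.5%. Which class was largest depended on the oocytes and on the members measured in them. Without SF KO replicate 3, 46.0% of members were kept in SF KO. Without EAF KO replicate 1, 49.3% were kept in EAF KO, which is the share of replicate 2 alone over its 302 members. Among members read in all 5 SF KO oocytes, 54.3% were kept.

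CpGs methylated late served as the closest comparison. These 444 CpGs met the same conditions, with a mean of at least 80% in EAF WT and at most 50% in SF WT. On held-out sets they averaged 65.8% in EAF WT and 48.6% in SF WT, so their EAF WT level lay below the limit that chose them. Held-out members averaged 88.8% in EAF WT, so the 2 sets did not start from the same EAF WT level. In SF KO, 14 of 295 (4.75%) were at 80% or above and 112 (38.0%) were at 20% or below. In EAF KO, 2 of 34 were at 80% or above and 10 of 34 at 20% or below. Members stood above the late CpGs in every KO oocyte, by 29.9 ± 6.50 points (SD, n = 5 oocytes) in SF KO and by 31.8 ± 5.11 points (SD, n = 2 oocytes) in EAF KO. In held-out SF WT oocytes the gap was 30.3 points and in EAF WT 23.0 points. The SF WT gap follows from how late CpGs were chosen.

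**Figure D2:**
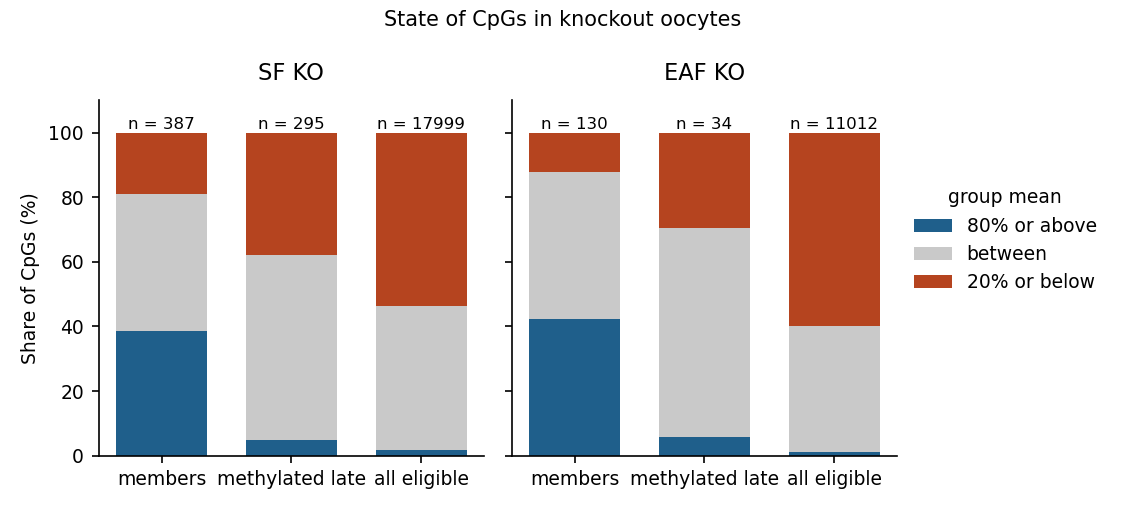
Share of CpGs (%) with a group mean of 80% or above, between, or 20% or below in SF KO (left) and EAF KO (right), for members, CpGs methylated late and all eligible CpGs, with the number measured above each bar. Members have the tallest share at 80% or above in both knockouts, 38.5% and 42.3%.

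Of the 123 members measured in both knockout groups, 90 (73.2%) had the same class in both, against 82.2% of the 10872 eligible CpGs measured in both, so this share is not particular to the members. Among them 45 were kept in both, 43 partial in both and 2 lost in both. A change by 1 class was seen in 32, with 13 kept in SF KO and partial in EAF KO, 10 the other way round, and 9 partial in SF KO and lost in EAF KO. One member was kept in SF KO and lost in EAF KO. Across these 123 CpGs in 53 regions the SF KO and EAF KO means had a Pearson r of 0.723 and a Spearman rho of 0.671, as a description, since neighbouring CpGs share reads. When 1 EAF KO oocyte was enough, 100 of the 129 members kept in SF KO were kept in EAF KO and 1 was lost, while of 30 lost in SF KO, 22 were lost, 3 partial and 5 kept.

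**Figure D3:**
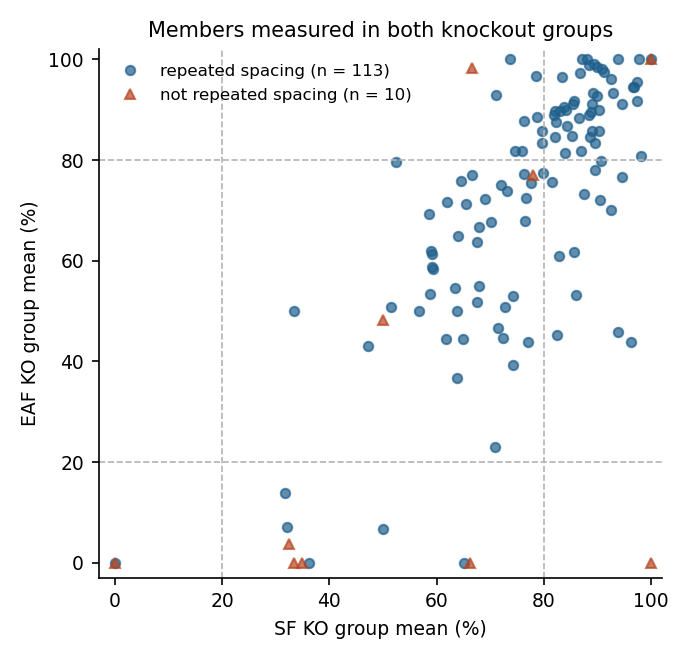
SF KO against EAF KO group mean (%) for the 123 members measured in both, with broken lines at 20% and 80% and 1 point per CpG (circles, CpG spacing that recurs elsewhere; triangles, spacing that does not). The upper right field holds 45 points and the central one 43, and 90 of 123 points (73.2%) are in the same class on both axes, against 82.2% of eligible CpGs.

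Partial means arose from oocytes that disagreed and from oocytes at intermediate levels. Of the 165 partial members in SF KO, 69 had at least 1 oocyte at 80% or above and at least 1 at 20% or below, 68 had high oocytes without low ones, 14 low without high, and 14 neither. Of the 59 in EAF KO, 9 had 1 high and 1 low oocyte and 24 had both in between. Most partial members of the SF stage therefore had at least 1 knockout oocyte at 80% or above.

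Neighbouring members tended to share a class. Within 500 bp, 340 of 552 pairs (61.6%) had the same SF KO class, against 36.2% of pairs farther apart, and 10 pairs combined a kept with a lost member. In EAF KO, 94 of 172 pairs (54.7%) within 500 bp agreed, against 39.2% farther apart. Fragments carry several CpGs, so pairs of this kind are not independent. Pairs of eligible CpGs were not scored, so this sharing cannot be called particular to the members.

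Readings in which both strands had at least 5 reads were scarce. In SF KO there were 314 such CpG-by-oocyte readings, with 39 high on both strands, 35 low on both and 32 high on one and low on the other. In held-out SF WT oocytes, 40 of 126 were high on both strands, 0 were low on both and 7 were opposite. EAF KO had 8, 7 and 4 of 60, and held-out EAF WT 23, 0 and 4 of 73. Readings low on both strands occurred in knockout oocytes of both stages and in no WT oocyte. Taken as independent, 0 of 126 allows a share of up to 2.38% and 0 of 73 a share of up to 4.11%. These limits are 3 over the number of readings. Readings share reads and oocytes, so the limits are too low.

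The state of a member in the knockouts went along with how widely it was covered. Of 180 members measured in 11 to 18 oocytes, 98 were kept in SF KO and 3 lost, at a mean of 77.3%. Of 47 measured in 4 to 6 oocytes and followed into SF KO, 11 were kept and 25 lost, at a mean of 33.9%. None of the 173 members read in all 5 SF KO oocytes was lost, and 94 were kept. Taken as independent, 0 of 173 allows a lost share of up to 1.73%. The 173 lay in 72 regions, so this limit is too low. In EAF KO, 52 of 106 members measured in 11 to 18 oocytes were kept and 3 were lost. Eligible CpGs were not classed by coverage, so whether this gradient is particular to the members was not tested.

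EAF WT levels did not follow the same gradient. Over members read in 8 to 11 WT oocytes, held-out SF WT averaged 82%, SF KO 78.1%, held-out EAF WT 87.2% and EAF KO 74.3%. Over members read in 4 or 5 WT oocytes, the same groups averaged 75.3%, 47.2%, 90.2% and 40.1%. The KO minus WT gap was thus small at the SF stage for widely covered members and wide for thinly covered ones.

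Density moved with the state too. In SF KO, 8 of 182 members with 10 to 14 CpG positions in the window were lost, against 48 of 173 with 5 to 9 and 17 of 32 with 1 to 4. Lost members had a median density of 6, kept ones 10 and partial ones 11. Eligible CpGs were not classed by density either. On the WT values that chose the members, lost ones had medians of 100% at both stages. Kept ones had 94.1% in SF WT and 93.8% in EAF WT. Lost members were measured in a median of 7 oocytes and kept ones in 12. A choice made on fewer oocytes raises such values more, so they do not rank the WT levels of the classes.

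Many members lay in sequence whose pattern of CpGs occurred at many places. A CpG was scored as having repeated spacing where a run of 7 listed CpGs that included it, at most 200 bp long, had the same distances as a run elsewhere, read in either direction. This measure was chosen after the values were seen. Copies of a transposon share such spacing, and a short read from one copy can match others. How reads with several matches were placed is not given in the sources used here, so a level at such a CpG may mix copies. Repeated spacing was found at 367 of 547 members (67.1%), at 71.7% of eligible CpGs, at 50.2% of late CpGs and at 19.6% of all listed autosomal CpGs.

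Kept members lay mostly in such sequence. Repeated spacing was found at 142 of 149 members kept in SF KO (95.3%), at 135 of 165 partial ones (81.8%) and at 28 of 73 lost ones (38.4%). In EAF KO it was found at 53 of 55 kept, 56 of 59 partial and 9 of 16 lost members. Eligible CpGs, which include the members, had it at 279 of 300 at 80% or above in SF KO and 136 of 140 in EAF KO. At 20% or below they had it at 6471 of 9679 and 5181 of 6601. The high share among kept members is therefore not particular to members. Runs of 5, 6 or 8 CpGs in place of 7 gave 92.6% to 97.3% for members kept in SF KO and 37.0% to 54.8% for lost ones. The spacing of a member occurred at up to 773 places.

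Members without repeated spacing had the widest genotype gap. In EAF WT oocytes they were at 95.6%, 96.9%, 97.3% and 93.9% on held-out sets, and in EAF KO at 41.3% and 34.8%. SF KO oocytes had 34.9%, 22.2%, 31.5%, 14.6% and 36.1%, and held-out SF WT oocytes ran from 45.1% through a median of 91.6% to 99.4%. KO and WT did not overlap at either stage. The number of CpGs behind these values was 20 to 40 per WT oocyte and 37 to 66 per KO oocyte. On shared CpGs, the EAF difference was -34.4 points over the 3 pairs with at least 10 CpGs in common, and the SF difference was -44.7 points over 23 pairs, 22 of them below 0.

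Among members with repeated spacing the gap was narrower. EAF WT averaged 87.5% ± 2.68 (SD, n = 4 oocytes) and EAF KO 66.8% ± 4.98 (SD, n = 2 oocytes), with 8 of 8 pairs on shared CpGs below 0 at a mean of -15.2 points. SF WT averaged 80.7% ± 4.53 (SD, n = 7 oocytes) and SF KO 69.9% ± 7.16 (SD, n = 5 oocytes), with overlapping ranges and a mean of -6.58 points on shared CpGs, 27 of 35 pairs below 0.

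By class, 142 of 305 members with repeated spacing were kept in SF KO (46.6%) and 28 lost (9.18%), against 1.97% and 45.8% of eligible CpGs with repeated spacing. Of 82 without it, 7 were kept and 45 lost (54.9%), against 0.544% and 83.1%. Spacing and coverage could be told apart only in part, since 175 of 180 widely covered members had repeated spacing. Within members measured in 4 to 10 oocytes, 27 of 130 with repeated spacing (20.8%) and 43 of 77 without it (55.8%) were lost in SF KO. The part of read placement and of coverage in these differences was not tested.

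**Figure D4:**
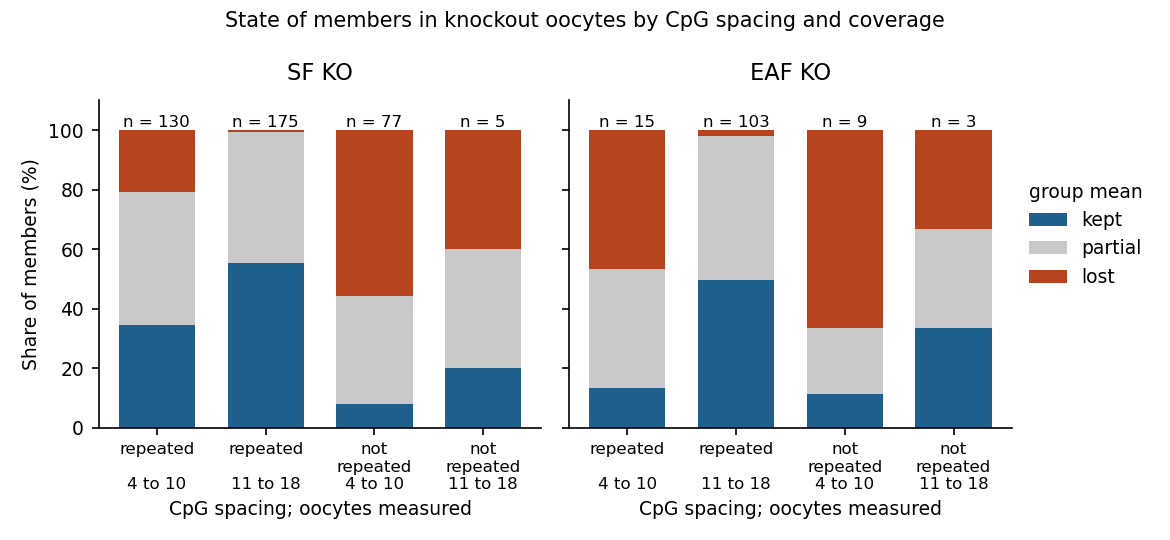
Share of members (%) kept, partial or lost in SF KO (left) and EAF KO (right), by whether the CpG spacing recurs elsewhere and by the number of oocytes that measured the member, with the number of members above each bar. Lost members reach 55.8% in SF KO where spacing was not repeated and coverage was 4 to 10 oocytes, and 0.571% where spacing was repeated and coverage was 11 to 18.

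Some spacings held many members each. The most common had 12, 52, 2, 2, 15 and 24 bp between its 7 CpGs and occurred at 621 places, 280 in one direction and 341 in the other, on 20 chromosomes. It held 98 members in 35 regions, 51 of them on chromosome 12, and 64 of the 79 measured in SF KO were kept and 1 lost. In EAF KO, 27 of 31 were kept. The members are the methylated end of this family. All CpGs at its 621 places averaged 42.4% in SF WT, 39.0% in SF KO, 49.1% in EAF WT and 36.8% in EAF KO.

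A second spacing, with distances of 8, 2, 16, 8, 23 and 11 bp, occurred at 573 places and held 68 members in 27 regions. It had fewer kept members, 19 of 65 in SF KO with the other 46 partial, and 6 of 35 in EAF KO. At all its places the mean was 56.0% in SF WT and 45.1% in SF KO, and 65.9% in EAF WT and 43.1% in EAF KO. Another, with 24, 8, 7, 2, 2 and 52 bp, occurred at 303 places and held 24 members, of which 15 were kept and 6 lost in SF KO. Read in the other direction, it has the distances of the most common spacing with the 15 bp distance split into 7 and 8 bp. It may therefore be a variant of that spacing and is not counted as a separate family. The most common spacing and the second thus differed in how many members were kept, and no repeat name could be attached here.

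Chromosome 12 stood out among the autosomes. It held 66 members, and 54 of 62 measured in SF KO were kept, 8 partial and 0 lost. Taken as independent, 0 of 62 allows a lost share of up to 4.84%. The 62 lay in 23 regions, so this limit is too low. The mean there was 88.5%, and 25 of 27 were kept in EAF KO at a mean of 89.9%. On the other autosomes 95 of 325 members were kept in SF KO and 73 lost, and 30 of 103 were kept in EAF KO and 16 lost. Among members with repeated spacing measured in 11 to 18 oocytes, 48 of 55 on chromosome 12 and 49 of 120 elsewhere were kept in SF KO. Which spacing they had was not held fixed. On chromosome 12, 51 of the 66 members had the spacing found at 621 places, kept in 64 of 79 over all chromosomes. Chromosome and spacing were therefore not told apart, and the eligible CpGs of chromosome 12 were not classed. This choice of a chromosome was made after its values were seen.

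Coverage was uneven along the chromosomes. Chromosomes 10 to 14 held 26.4% of listed autosomal CpGs, 55.7% of eligible ones and 36% of members, but 119 of the 180 members measured in 11 to 18 oocytes (66.1%). The reason is not given in the sources used here.

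Regions of joined members show what these shares look like in single oocytes. The regions are lettered A to N in genome order, with coordinates of mm9, the build named in the submitters' processing notes. No sequence or annotation of that build was used, so the genes and repeats at these positions are not named. Region values are means over the members measured in an oocyte, so oocytes can differ in the members behind a value. WT oocytes were not held out here. Their region values helped to choose the members, which favours high WT values and wide gaps in all regions.

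Of regions with at least 5 members measured in SF KO, 3 low ones were singled out after their values were seen. Region K, chr15:35046754-35047476, had 11 members, the most of any. SF WT oocytes had 96.2%, 100% and 92.5%, and EAF WT oocytes 100% in each of 3. SF KO oocytes had 6.75%, 0.741%, 33.3% and 0%, and the only EAF KO oocyte with reads had 0%. All 11 of its members had repeated spacing, occurring at up to 543 places.

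Region N, chr19:30735855-30736365, with 6 members, had a similar profile. SF WT oocytes had 100%, 97.3% and 97.8%, and both EAF WT oocytes 100%. SF KO oocytes had 0.198%, 2.10% and 0%, and 1 EAF KO oocyte had 19.0%. In region C, chr9:59539729-59539765, with 5 members and no repeated spacing, both WT oocytes of each stage had 100%, while SF KO had 20% and 0%. No KO value of K, N or C reached any WT value. These regions were picked for low SF KO values, and their WT values helped to choose the members, which favours a wide gap. At the EAF stage, C had no measured KO oocyte and K and N had 1 each.

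Other low regions were measured in both knockout groups. Region L, chr15:67333777-67333884, had 5 members without repeated spacing, at 100% and 99.7% in SF WT and 100% in both EAF WT oocytes. It had 99.3%, 20% and 25% in SF KO, and 20% and 40.1% in EAF KO. The 99.3% is SF KO replicate 1, the library that stood apart, and without it the SF KO mean was 22.5% in place of 48.1%. In region D, chr9:106975272-106975362, also with 5 members, SF KO oocytes had 100%, 0% and 39.9%, and both EAF KO oocytes 20%, against 97.1% to 100% in the WT oocytes of both stages. The 100% in SF KO is again replicate 1, and without it the SF KO mean was 19.97% in place of 46.6%.

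Within these regions neighbouring CpGs did not all have the same state. At L, the EAF KO means of the 5 members, from first to last position, were 48.2%, 98.3%, 0%, 0% and 3.70%. A kept CpG and lost ones thus lay within the same 108 bp. At N, 2 of the 6 members had 52.6% and 61.1% in the 1 EAF KO oocyte and the other 4 had 0%.

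Region A, chr1:85336513-85336730, had 7 members and more oocytes. SF WT oocytes ran from 81.3% to 100% in 5 oocytes, and EAF WT oocytes had 100%, 95.6%, 100% and 100%. SF KO oocytes had 67.0%, 57.1%, 88.2%, 75.6% and 60.5%, and EAF KO oocytes 48.1% and 58.4%. Region A was between 20% and 80% in 6 of 7 KO oocytes, with SF KO replicate 3 within the SF WT range and no overlap at the EAF stage. SF KO replicates 3 and 5 were read at only 3 of the 7 members, which included the 2 kept ones. The region mean also joins unlike CpGs, since 1 member was at 0% in both knockouts and 2 were kept in both. Region J, chr14:29002045-29002484, was intermediate as well, at 80.2% ± 9.60 (SD, n = 7 oocytes) in SF WT, 68.1% ± 11.6 (SD, n = 5 oocytes) in SF KO, 90.7% ± 9.10 (SD, n = 4 oocytes) in EAF WT and 61.3% ± 10.8 (SD, n = 2 oocytes) in EAF KO. Without replicate 1 the SF KO mean of J was 63.1%. SF WT replicate 3 was read at 1 of the 5 members of J.

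Regions B and D had the largest negative EAF KO minus SF KO differences of the regions with at least 3 members measured in both, and I and E the largest positive ones. In region B, chr4:70256117-70256153, with 3 members, SF KO oocytes had 87.3% and 61.5% and EAF KO oocytes 62.8% and 0%, so the EAF KO mean of 31.4% rests on 1 oocyte at 0%. In region I, chr12:119626510-119626719, SF KO averaged 84.2% ± 6.21 (SD, n = 5 oocytes) and EAF KO 94.7% ± 2.82 (SD, n = 2 oocytes). EAF KO values at I, 96.7% and 92.7%, lay within the EAF WT range of 75.6% to 96.5% or just above it.

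The 5 highest regions were all on chromosome 12 and shared the spacing found at 621 places. Region G, chr12:64452861-64453361, with 9 members, had 91.1%, 93.4%, 90.1%, 91.7% and 90.1% in SF KO and 94.4% and 94.7% in EAF KO. SF WT oocytes there ran from 94.3% to 100%, and EAF WT oocytes had 96.9%, 91.7%, 89.7% and 93.7%. Genotypes overlapped at the EAF stage, and at the SF stage the KO mean differed from the WT mean by -5.60 points, with no overlap.

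Region E, chr12:40265716-40265734, with 3 members, averaged 90% ± 6.42 (SD, n = 5 oocytes) in SF KO and 96.6% ± 4.83 (SD, n = 2 oocytes) in EAF KO, against 91.0% in SF WT and 95.3% in EAF WT. Region F, chr12:59221765-59221809, with 5 members, averaged 86.4% in SF KO and 87.8% in EAF KO, against 90.1% and 87.0% in WT. Region H, chr12:93410440-93410859, with 4 members, averaged 85.7% in SF KO and 88.8% in EAF KO, against 85.8% and 88.0%. In E, F and H the KO and WT oocytes overlapped at both stages. These regions were picked for high KO values, which favours a small gap.

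Region M, chr16:27423427-27423886, with 9 members, was the best covered of the large regions, read in all 18 oocytes. SF WT oocytes ran from 78% through a median of 86.9% to 93.9%, and SF KO oocytes had 90.4%, 79.7%, 66.1%, 78.6% and 80.5%. EAF WT oocytes had 89.0%, 92.5%, 91.8% and 87.3%, and EAF KO oocytes 63.0% and 68.2%. On these WT values, which were not held out, the genotypes overlapped at the SF stage and were apart at the EAF stage, by -24.6 points.

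**Figure D5:**
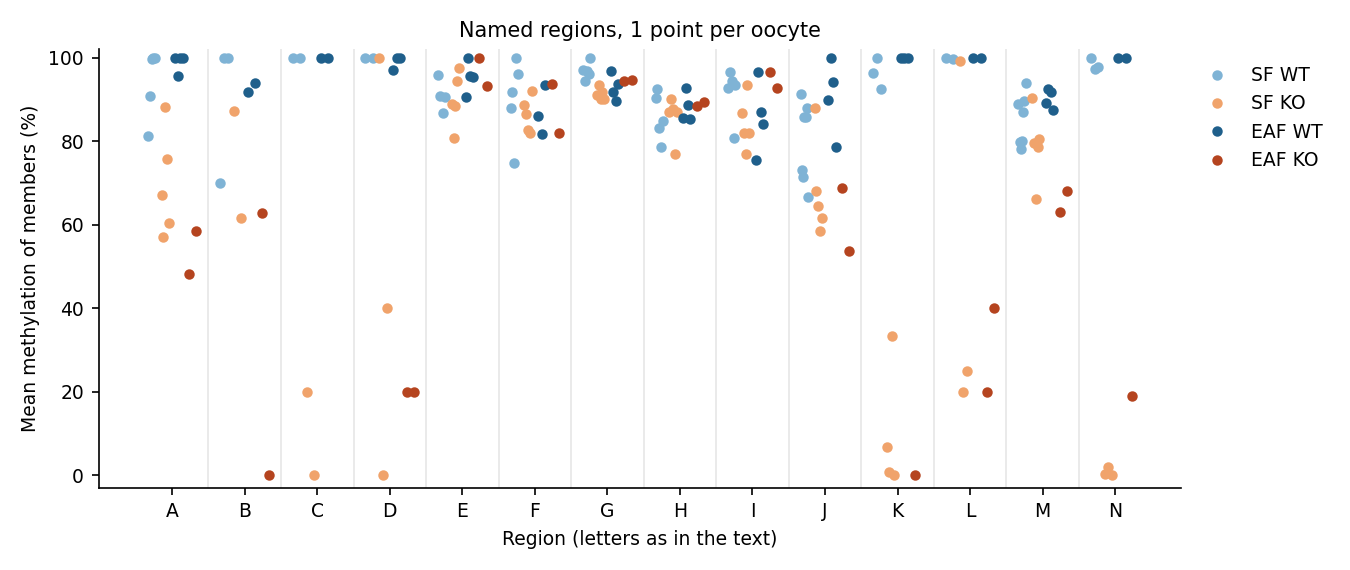
Mean methylation (%) of the members of regions A to N, with 1 point per oocyte, grouped by stage and genotype. WT points are not held out. In regions C, K and N, picked for low SF KO values, KO points lie below WT points. C has no EAF KO point and K and N have 1 each. Regions E to I on chromosome 12, picked for high KO values, do not separate the genotypes at the EAF stage. The high SF KO points of D and L are both replicate 1, the library that stood apart.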

How the data were processed

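Per the labels' protocols, the DNA of 1 oocyte was cut with MspI, given adaptors, treated with bisulfite and enriched by PCR. BSMAP 2.89 and mm9 are named in the submitters' processing notes, and how reads with several matches were handled is not given in the sources used here. The deposited tables hold, per CpG, whole-number counts of all and of methylated reads on both strands and on each strand, per the file headers, and the methylation ratio, a fraction from 0 to 1, which the authors derived from them. Positions were read as BED and printed 1-based. From the counts, levels were methylated over total reads at CpGs with at least 5 reads, averaged over oocytes with equal weight. Membership, class, held-out and spacing steps were tested on simulated data, and the joining of members into regions was not. Samples were grouped by the labels' stage and genotype. Libraries are single cells of unstated animals, so no test was run, and same-numbered oocytes were not paired (1 of 9 pairs of that kind had a correlation above 0.1, from -0.0629 to 0.170).

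Named regions were the 5 lowest and 5 highest by their mean over both knockouts, the 2 with the largest stage difference in each direction and the 3 with most members. For the ranks on knockout values a region needed at least 3 members measured in both knockouts, since only 8 had the 5 first planned and 10 were required for that. This left 19 regions, of which 11 are named. The rank by members had no such minimum and put the regions with more members measured in both knockouts first among ties, so 2 of 4 regions with 9 members are not named. The 3 lowest in SF KO with at least 5 members measured there were added. Regions of chromosome 18 were not named. The members, lists and measures were chosen with earlier results of these data known. Alternatives changed read, coverage, level and density limits, weighting, class limits and oocytes included. Autosomal read sums of 450939 to 6284646 per library set the precision. The X chromosome was left out of the members. Tools were matplotlib 3.10.9, scipy 1.17.1, pandas 2.3.3 and numpy 2.4.6 under Python 3.11.15.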

Additional observations from a re-analysis of the deposited data

Results flagged for a closer look

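SF KO replicate 1 stood apart from the other SF KO oocytes at CpGs that were at 10% or below in the wild-type oocytes of both stages. Its mean there was 17.8%, against 4.73%, 5.62%, 5.95% and 5.98% in the others, a gap that passed Dixon's 95% limit for 5 values. This was 1 of 24 comparisons of this kind, and chance alone gives about 1 in 20. The same oocyte had the highest SF KO level at the members, 70.1%, and the largest median depth there, 40 reads. Its part in the member values was not tested beyond leaving it out, which gave a mean of 60.6% for the other 4.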

How the results depend on the processing

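No result was past a test's threshold, since none was run, so what follows is how far values moved, and their causes were not tested. Both genotype differences kept their sign under every alternative. The EAF KO minus SF KO difference of -1.30 points did not: it was 0.326 with at least 3 reads per CpG, 2.77 with pooled reads, 1.29 with fewer than 10 CpG positions within 100 bp, 0.535 with 1 value per region and 10.2 for members without repeated spacing. With replicate number as a block, which does not pair these oocytes, the SF, EAF and stage differences were -13.1, -28.5 and -1.95 points. Class means in EAF KO rest on 2 oocytes and 130 members.

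With at least 3 reads there were 1136 members and an EAF difference of -23.6 points, 67.9% (SF KO) and 66.9% (EAF KO) of neighbours shared a class, and 29.1% of strand readings of both knockouts together agreed as high or low, against 23.8% with at least 5 reads. With at least 10 reads there were 182 members, 14.5% lost in SF KO, a gap to late CpGs of 37.4 points and 11% strand agreement. With at least 3 wild-type oocytes of each stage, 163 members remained, with 51.0% kept and 4.03% lost in SF KO, 3.45% lost in EAF KO, differences of -5.96 (SF) and -13.1 (EAF) points and 13.4% strand agreement. Wild-type means of at least 90% gave 355 members, 30.6% and 24.4% lost in SF KO and EAF KO, differences of -26.6 and -41.0 points, a gap to late CpGs of 24.4 points in EAF KO, 70.6% and 42.5% of neighbours alike and 54.7% strand agreement. Pooled reads gave 29.8% strand agreement.

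Fewer than 10 CpG positions within 100 bp gave 335 members, 31.7% and 22.0% lost, an EAF difference of -35.1 points, 69.3% and 37.8% of neighbours alike and 61.2% strand agreement. Fewer than 15 within 250 bp gave 257 members, 24.6% and 22.6% kept, 34.3% and 41.9% lost, differences of -32.4 and -48.2 points, gaps to late CpGs of 20.6 and 18.5 points, 72.0% and 41.2% of neighbours alike and 67.3% strand agreement. With 1 knockout oocyte as the minimum, 31.0% and 25.3% were lost and 67.0% of EAF KO neighbours were alike. With all knockout oocytes required, 54.3% were kept and 0% lost in SF KO. Members measured in both knockouts had 48.0% kept and 1.63% lost in SF KO, differences of -3.19 and -19.0 points, a stage difference of -8.00 points, a gap to late CpGs of 38.3 points and 13.9% strand agreement. Limits of 70% and 30% gave 49.9% and 58.5% kept, 66.8% of SF KO neighbours alike and 33.4% strand agreement. There were 238 regions as single values.

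Of the alternatives added after seeing the data, members with repeated spacing had 46.6% kept and 9.18% lost in SF KO and an EAF difference of -20.8 points. The 180 without it had 8.54% and 16.7% kept, 54.9% and 58.3% lost, differences of -53.3 and -57.9 points, gaps to late CpGs of 11.9 and 23.9 points, 75.9% and 36.4% of neighbours alike and 67.7% strand agreement. Shared CpGs gave an EAF difference of -17.9 points. Thinning to 5 reads moved none of the 12 values it gave beyond their spread.

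Leaving out 1 oocyte at a time gave 348 to 548 members, the fewest without EAF WT replicate 3. Kept shares ran from 34.2% to 46.2% in SF KO and from 39.8% to 49.3% in EAF KO. Lost shares ran from 9.39% to 21.2% in SF KO, lowest without EAF WT replicate 4, and from 7.08% to 28.9% in EAF KO, highest without EAF KO replicate 2. Without 1 EAF KO oocyte, the EAF KO classes rested on the other alone, with 1 oocyte as the minimum. They then covered 302 members (replicate 2) or 180 (replicate 1) in place of 130, so the set of CpGs changed too. The SF difference ran from -19.4 to -11.9 points, the EAF difference from -30.1 to -20.7 and the stage difference from -3.72 to 1.13, above 0 without EAF KO replicate 1, SF KO replicate 1 or SF WT replicate 2. Gaps to late CpGs ran from 26.2 to 34.2 (SF KO) and from 27.6 to 35.7 points (EAF KO), neighbours alike from 58.6% to 65.5% and from 53.5% to 68.5%, and strand agreement from 17.8% to 25.9%.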

Other observations

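The same rule applied to the X chromosome gave 53 CpGs, which were not members. In SF KO, 43 were measured, of which 11 were kept, 30 partial and 2 lost, at a mean of 59.1%. In EAF KO, 12 were measured, with 5 kept, 5 partial and 2 lost, at a mean of 62.6%.

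Partial means of late CpGs and of members both held mixed readings. Of 169 late CpGs between 20% and 80% in SF KO, 94 (55.6%) had both a high and a low oocyte, and 69 of 165 partial members (41.8%) did. This difference was not tested.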
